A study of Arabidopsis thaliana with 4 samples.

Results

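STZ and 6 genes known in the tables used here only by their locus codes (AT4G29780, AT4G27654, AT4G27652, AT3G10930, AT5G65300 and AT5G17350) had higher transcript levels in seedlings of the ref6-1 mutant than in wild-type seedlings of *Arabidopsis thaliana*. The ratio of mean intensities, ref6-1 over Col, ran from 1.66 for STZ to 2.87 for AT4G29780. Each gene was read by 1 probe set that the array's annotation gives to it alone, and these 7 probe sets were taken from the 22746 tested. They were chosen by their log2 difference between ref6-1 and Col on these same 4 arrays, so that difference is given as a description, with no test. Single-gene probe sets of the array covered 13286 loci in all.

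Transcript levels had been measured on Affymetrix ATH1 arrays, which read each transcript through a set of short probes. Col plants served as wild type and were compared with plants carrying 1 mutant allele, ref6-1, in the same background; each genotype had 2 arrays, which the labels call biological replicates. All seedlings were harvested whole after 10 days on MS plates at 23 °C under long days (16 h light, 8 h dark), and none received a treatment. REF6, also called JMJ12, is a histone demethylase that erases the repressive mark H3K27me3. No probe set is named REF6 in the annotation used, so the genotype of the arrays was not checked through that transcript.

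Plant cells answer a sudden stress such as touch, wounding, cold, salt or a microbial elicitor with an early wave of transcripts that rise and fall within a short time. The wave includes genes of calcium sensors, ubiquitin ligases, and zinc finger, ERF and WRKY transcription factors, and is thought to be started by calcium and reactive oxygen signals. STZ (locus AT1G27730), the salt tolerance zinc finger also called ZAT10, is one of its best known members: a C2H2 zinc finger protein that mainly represses transcription and whose transcript is induced by salt, cold and drought. The other 6 genes are protein-coding but carry no functional name in the tables used, so no role is given to them here. With no stressed sample in the series, the rapid induction that gave the group its name was not measured, and the values below are those of unstressed seedlings.

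The deposited values are intensities on a linear scale. They were compared as log2(intensity + 16), a scale on which changes of dim probe sets come out too small, and the SE of each difference comes from limma, a linear model fitted over all probe sets that shares information on their spread. The median intensity lay between 143 and 146 on the 4 arrays. In whole seedlings a change in the number of cells of a type and a change in RNA per cell cannot be told apart. The leaf markers RCA and LHCB4.1 summed to 24584 and 25757 in Col and to 25438 and 26249.6 in ref6-1, and the root markers EXPA7 and EXPA18 to 308 and 277 in Col and to 315 and 316.5 in ref6-1. These 4 were the measured genes among 17 organ markers, and none of them passed the test. Control probe sets at both ends of 3 transcripts track RNA integrity. The 3' signal divided by the 5' signal overlapped between genotypes for actin (4.98 and 5.11 in Col, 5.10 and 4.65 in ref6-1) and GAPDH (2.81 and 2.19 in Col, 2.39 and 2.13 in ref6-1). For ubiquitin it was 2.14 and 2.06 in Col and 1.98 and 1.99 in ref6-1, lower in both mutant arrays, and its part in the values below was not tested.

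STZ had intensities of 646 and 655 on the Col arrays and of 1098 and 1056 on the ref6-1 arrays. Both mutant arrays stood well above both wild-type arrays, and the arrays of each genotype lay close together. The log2 difference, ref6-1 minus Col, was 0.71 (SE 0.0936), and the 4 possible differences between a ref6-1 and a Col array lay between 0.68 and 0.75. Among the 7 genes STZ had the smallest difference; in the order of all probe sets from the highest difference down it stood at place 81.

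AT4G29780 was the most changed of the 7. Its intensities were 186 and 184 in Col and 537 and 523 in ref6-1. The arrays of a genotype were nearly equal, and the difference between genotypes was large beside that spread. The log2 difference was 1.44 (SE 0.0948), with 1.42 to 1.47 over the 4 pairs of arrays, and it held place 4 of all probe sets.

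AT5G65300 and AT5G17350 behaved much like it at a somewhat smaller size. AT5G65300 read 185 and 159 in Col and 422 and 417 in ref6-1, a log2 difference of 1.21 (SE 0.105). AT5G17350 read 143 and 128 in Col and 311 and 308 in ref6-1, a log2 difference of 1.11 (SE 0.101). In both genes the 2 ref6-1 arrays agreed more closely than the 2 Col arrays, in which replicate 1 was the higher, by 0.20 and 0.14 on the log2 scale.

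AT3G10930 read 70.7 and 74.2 in Col and 211 and 174 in ref6-1. Its mutant arrays differed from each other by 0.25 on the log2 scale, and neither came near the wild-type values. The log2 difference was 1.23 (SE 0.114), with 1.08 to 1.39 over the pairs of arrays.

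AT4G27654 and AT4G27652 varied most between replicates. AT4G27654 read 89.85 and 62.3 in Col and 240.4 and 179 in ref6-1, so that replicate 1 exceeded replicate 2 by 0.43 in Col and by 0.40 in ref6-1 on the log2 scale. AT4G27652 read 287 and 199 in Col and 585 and 532 in ref6-1, with replicate 1 higher by 0.50 and 0.13. The genotypes did not overlap in either gene. The log2 difference was 1.30 (SE 0.165) for AT4G27654, with pairs of arrays from 0.88 to 1.71, and 1.17 (SE 0.149) for AT4G27652, with pairs from 0.85 to 1.48.

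**Figure D1:**
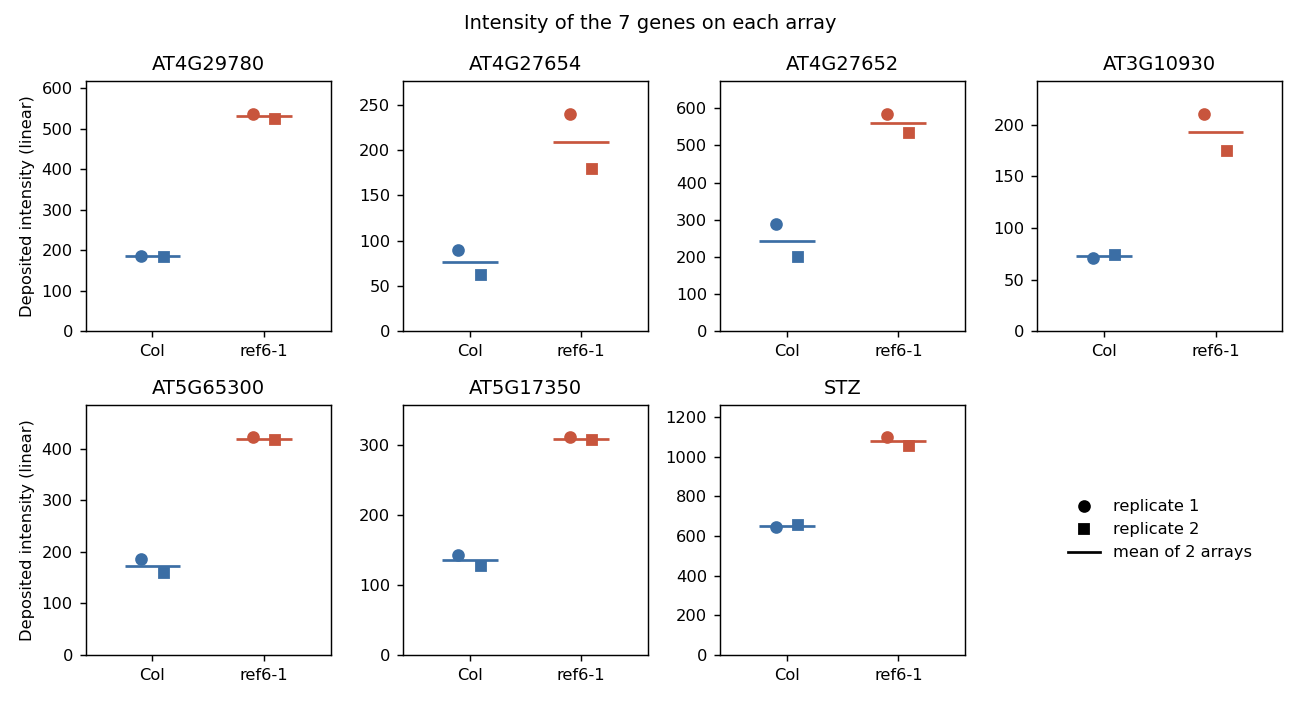
Deposited intensity (linear, vertical axes from 0) of the 7 genes on each of the 4 arrays, with circles for replicate 1, squares for replicate 2 and a line at the mean of the 2 arrays of a genotype. Both ref6-1 arrays lie above both Col arrays in all 7 genes, and AT4G27654 and AT4G27652 show the widest gaps between replicates.

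Ordered by the size of the difference, AT4G29780 came first, followed by AT4G27654, AT3G10930, AT5G65300, AT4G27652 and AT5G17350, and then STZ. The 5 genes from AT4G27654 to AT5G17350 lie between 1.11 and 1.30, and neighbours in that order differ by less than their SE. AT4G29780 exceeds AT4G27654 by less than the SE of the latter, whereas STZ lies apart from AT5G17350 by several times either SE. The median over the 7 was 1.21, beside -0.02 over all probe sets tested.

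All 7 were past the adjusted threshold of 0.05 as higher in ref6-1, beside 0.774% of all probe sets (176 of 22746), and in all 7 both ref6-1 arrays exceeded both Col arrays, beside 16.1% of all. Since this comparison chose the genes, nothing is read from these counts.

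**Figure D2:**
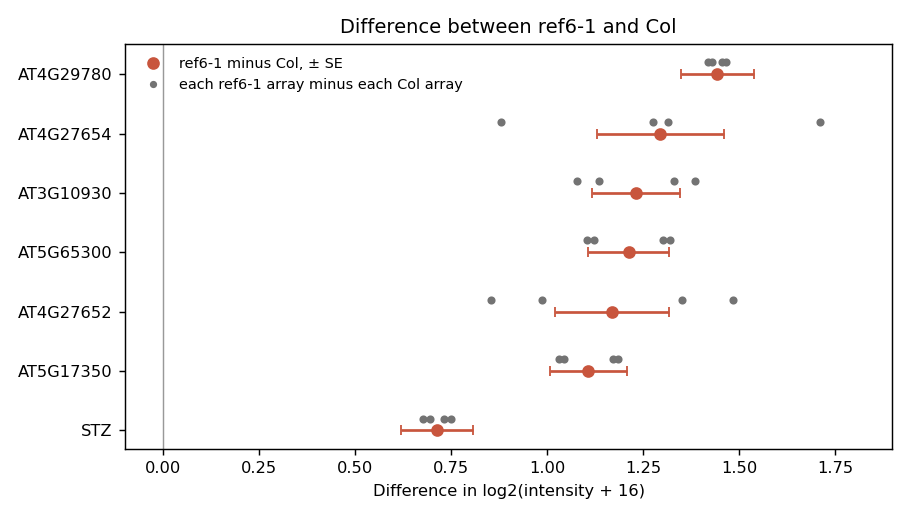
Difference between ref6-1 and Col on the scale of log2(intensity + 16) for the 7 genes, with large points and bars for the difference ± SE from limma and small points for each ref6-1 array minus each Col array. All 4 array pairs lie above 0 for each gene, from 0.68 at the lowest for STZ to 1.71 at the highest for AT4G27654.

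The replicates varied together in part. In ref6-1, replicate 1 exceeded replicate 2 in all 7 genes, by 0.01 for AT5G17350 up to 0.40 for AT4G27654 on the log2 scale. In Col, replicate 1 was the higher in 5 of the 7, and AT3G10930 and STZ went the other way by 0.06 and 0.02. With 2 arrays per genotype these differences describe the arrays at hand only.

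AT4G27652 and AT4G27654 are next to each other in the RefSeq gene order of chromosome 4, between PEL1 (AT4G27650), which encodes a Pelota protein, and AT4G27657. The 4 loci follow one another with no other locus listed between them. AT4G27657 was not among the genes chosen. Its intensities were 206 and 133 in Col and 396 and 259.6 in ref6-1, so replicate 1 exceeded replicate 2 by 0.57 and 0.58 on the log2 scale, the same direction as in its 2 neighbours. The genotypes did not overlap, and the log2 difference was 0.89 (SE 0.207), but the limma adjusted p over all probe sets was 0.0831. That p depended on the fit. It was 0.0448 after median centring and 0.137 with a robust prior. With the replicate number as a block it was 1.2e-19. On 4 arrays the block fit leaves little of the gene's own spread to measure. Its p thus rests mainly on the spread shared among probe sets. The log2 difference was 1.18 without Col replicate 1 and also 1.18 without ref6-1 replicate 2, whereas leaving out Col replicate 2 or ref6-1 replicate 1 gave 0.60. The measured loci on either side of AT4G27652, AT4G27654 and AT4G27657 had smaller differences and were not called. Whether these loci change as a group was not tested. PEL1 read 378 and 385 in Col and 392 and 404 in ref6-1, a log2 difference of 0.06 (limma adjusted p = 0.949), and AT4G27660 on the far side had -0.24 (adjusted p = 0.643).

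Beside the other 5 genes, none of the nearest measured loci was called. Some of these loci lie several places away in the gene order, 6 for AT3G10880 and 5 for AT4G29750, and the loci between were not measured. At the share called among all probe sets, 0 calls among so few loci do not show that a gene stands alone. Of the 12 loci that were the nearest measured ones beside the 7 genes and are not among them, limma called 0 over all probe sets, where 1.48% of all probe sets were called in either direction; 2 had an unadjusted p under 0.05, beside 8.5% of all, namely AT4G27657 and AT5G17340. AT5G17340, which lies 2 places before AT5G17350 in the gene order, read 126 and 101 in Col and 72.7 on each ref6-1 array. It was thus lower in ref6-1 where AT5G17350 was higher, with a log2 difference of -0.54 (SE 0.117, limma adjusted p = 0.0611). That p fell to 0.00311 when Col replicate 2 was left out, to 0.0361 after median centring and to 0.0449 after quantile normalization, and it rose to 0.194, 0.124 and 0.170 when Col replicate 1, ref6-1 replicate 1 and ref6-1 replicate 2 were left out. The locus on the other side of AT5G17350, AT5G17360, had 0.05. Beside STZ, AT1G27700 had -0.13 and SAT32 had -0.11. Beside AT4G29780, AT4G29750 had -0.02 and AT4G29790 had 0.06. Beside AT3G10930, AT3G10880 had -0.22 and AT3G10950 had -0.11. Beside AT5G65300, AT5G65290 had 0.17 and AT5G65320 had -0.17. Within 4 measured loci on each side, 48 loci in all, 0 were called and 4 had an unadjusted limma p under 0.05, again beside 8.5% of all probe sets. These 4 were AT4G27657, AT5G17340, AT4G29700 on the side of AT4G29780 (log2 difference 0.36) and AT5G65380 on the side of AT5G65300 (0.30).

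**Figure D3:**
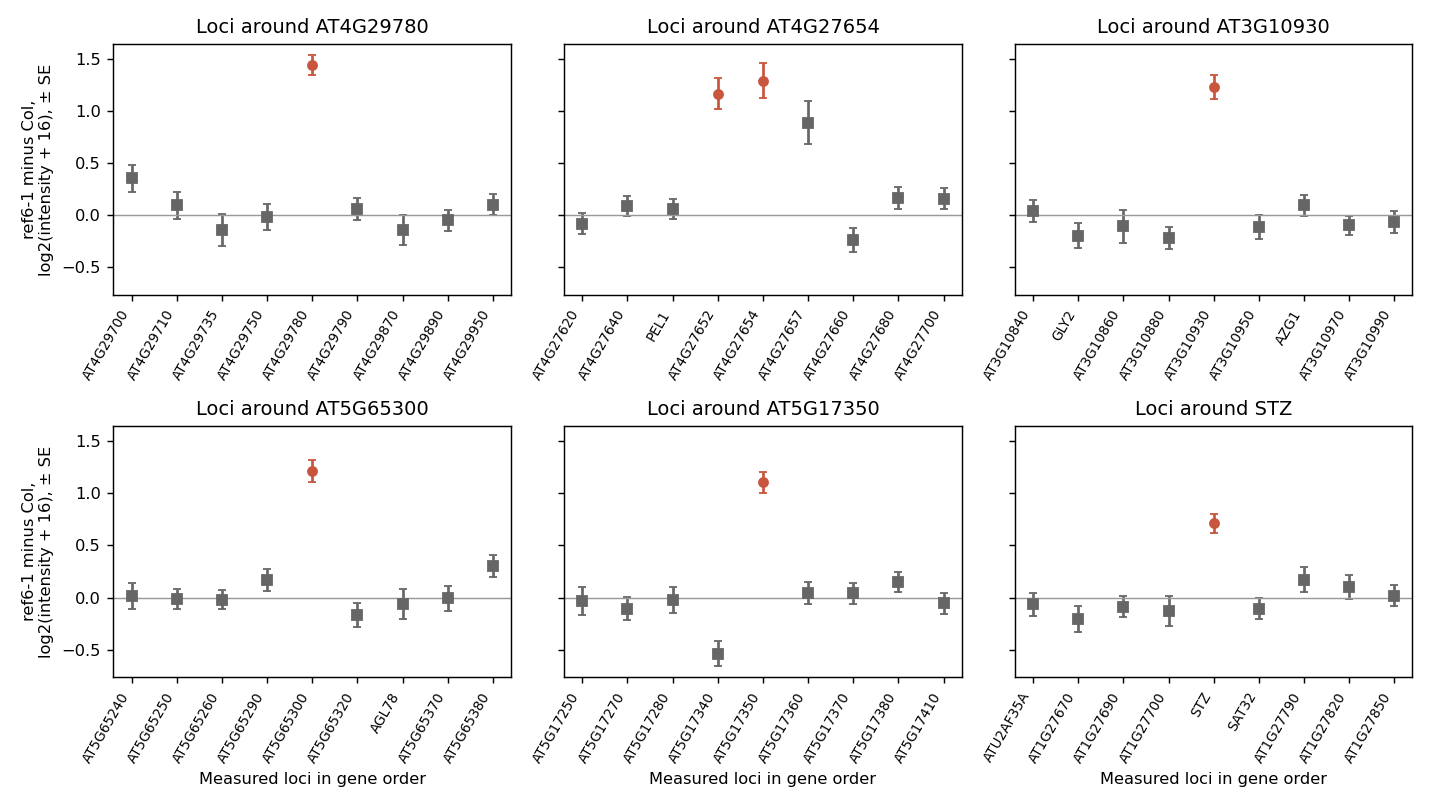
Difference between ref6-1 and Col (log2(intensity + 16), ± SE) for the 4 nearest measured loci on each side, in gene order and not to physical scale, with circles for the 7 chosen genes and squares for other loci. AT4G27652, AT4G27654 and AT4G27657 stand together above the loci around them. Each other chosen gene lies above the measured loci drawn beside it, with AT5G17340 at -0.54 beside AT5G17350.

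The genes nearest to the 7 in pattern were found by the root mean square difference between a probe set's 4 array values, each centred on the mean of the 4 arrays, and the mean of the 7 genes centred in the same way. Within the group AT5G65300 lay closest to this mean (0.0461 on the log2 scale) and STZ farthest (0.239). Among other probe sets with a single gene the 8 nearest were AT1G19320, AT3G53310, AT5G51440, AT4G34150, AT2G29500, AT2G34930, AT2G27080 and AT5G48570, at distances from 0.0847 to 0.137. They lay nearer than STZ itself, AT4G29780 (0.153) and AT4G27654 (0.147). AT1G19320, the nearest, read 64.4 and 55.7 in Col and 142 and 153 in ref6-1, a log2 difference of 1.11 (SE 0.108). AT4G34150 read 733 and 692 in Col and 1449 and 1377 in ref6-1, a difference of 0.97 (SE 0.0958). AT5G48570, the only one of the 8 with a name in the gene table (ROF2 or FKBP65, of the FKBP family of prolyl isomerases), read 743 and 799 in Col and 1904 and 1974 in ref6-1. Being near a group chosen as high in ref6-1, they are high in it by construction. The likeness rests on 4 arrays, and it mostly reflects the size of the step between the genotypes. Among the 20 nearest probe sets outside the group 13 are not paired with a single gene.

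**Figure D4:**
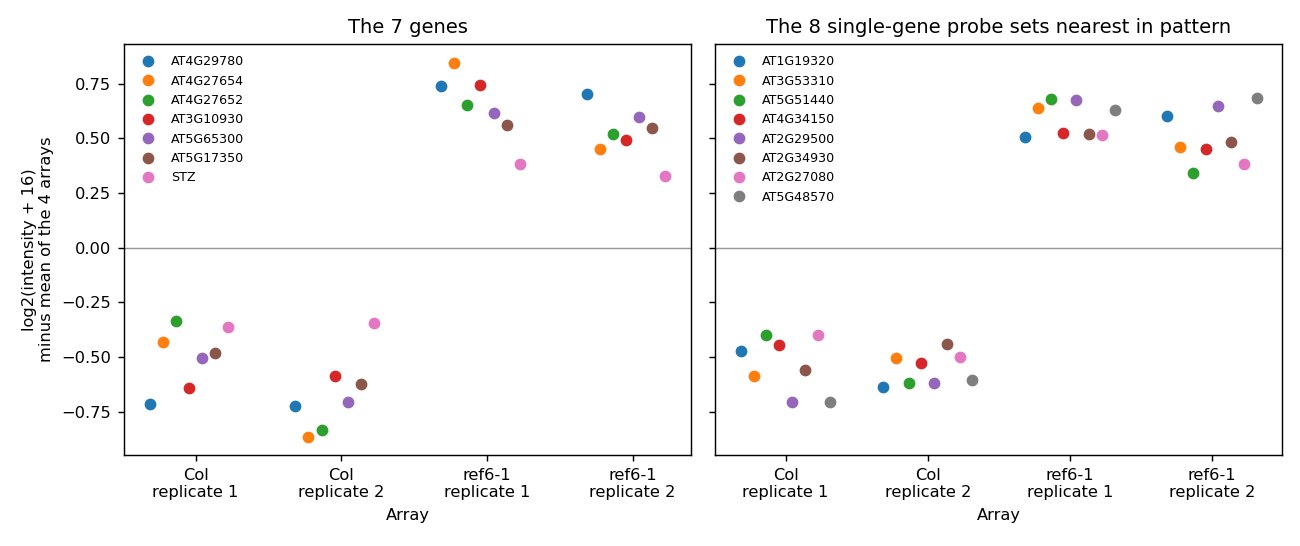
Log2(intensity + 16) on each array minus the mean of the 4 arrays, for the 7 genes (left) and for the 8 single-gene probe sets nearest to their mean pattern (right), with 1 colour per gene. Points lie below 0 on both Col arrays and above 0 on both ref6-1 arrays, and STZ makes the smallest step among the 7.

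Other genes of the rapid stress response were put into 11 lists from general knowledge. Of their 134 genes 23 could be matched to a probe set, 8 were left out because locus code and symbol did not match in the gene table (5 of these have a probe set), and the rest are not named in the annotation used. Over the 23, limma called 3 as higher and 0 as lower in ref6-1, beside 0.774% and 0.708% of all probe sets; 9 had an unadjusted p under 0.05, beside 8.5% of all. Their median log2 difference was 0.18, beside -0.02 over all probe sets, and 17 of the 23 (73.9%) were above 0, beside 43.6% of all. Both ref6-1 arrays exceeded both Col arrays in 13, beside 16.1% of all probe sets, and lay below both in 3, beside 19.5%. The lists were made with results of these arrays known, so these counts are a description.

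The 3 genes called were AT1G19020, CML37 and CML23. AT1G19020, a locus without a functional name here, read 359 and 267 in Col and 574 and 516 in ref6-1, a log2 difference of 0.78 (SE 0.135, limma adjusted p = 0.0194), and stayed called without any single array. CML37 and CML23 encode calmodulin-like calcium sensors. CML37 was dim, at 17.3 and 20.2 in Col and 37.4 and 34.0 in ref6-1; its log2 difference of 0.57 (SE 0.109, limma adjusted p = 0.0327) is lowered by the added 16 and was 0.90 with 1 added. It was not called without Col replicate 1 (adjusted p = 0.0512), without ref6-1 replicate 1 (0.141) or without ref6-1 replicate 2 (0.0674). CML23 read 139 and 134 in Col and 209.8 and 189 in ref6-1, a log2 difference of 0.49 (SE 0.102, limma adjusted p = 0.0494). It lost its call when any 1 array was left out, with adjusted p from 0.0645 to 0.226.

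Of the 6 measured genes in the list of touch genes and calcium sensors, 2 were thus called higher, beside 0.774% of all probe sets. The other 4 did not pass. The single measured gene of the ERF and DREB list was ORA47, an AP2/ERF factor that promotes jasmonate synthesis. It read 234 on each Col array and 302 and 349 in ref6-1, a log2 difference of 0.45 (SE 0.105) with a limma adjusted p of 0.0874; leaving out 1 array gave adjusted p from 0.0402 (ref6-1 replicate 1) to 0.545. The ubiquitin ligase genes PUB22, PUB23 and PUB24 encode products that dampen the response to microbial elicitors. They were the 3 measured genes in the list of MAP kinases, ubiquitin ligases and early elicitor genes. Limma called 0 of the 3, beside 1.48% of all probe sets in either direction, and 2 had an unadjusted p under 0.05, beside 8.5%. At that share, 0 calls among so few genes say nothing about them. Both ref6-1 arrays exceeded both Col arrays in all 3, beside 16.1% of all probe sets. For PUB24 the closest pair of arrays differed by only 0.0016 on the log2 scale. PUB23 read 251 and 216 in Col and 303 and 357 in ref6-1, a difference of 0.47 (limma adjusted p = 0.114), with adjusted p from 0.0317 (ref6-1 replicate 1) to 0.551 when 1 array was left out. PUB22 read 183 and 187 in Col and 219 and 253 in ref6-1, a difference of 0.32 (adjusted p = 0.305). PUB24 read 65.91 and 66.16 in Col and 72.94 and 66.25 in ref6-1, a difference of 0.06 (adjusted p = 0.952).

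Among the 10 measured loci of the list of uncharacterised rapid stress genes, 1 passed as higher, beside 0.774% of all probe sets. The other 9 did not pass. AT2G32190 came next after AT1G19020, with 27.9 and 20.2 in Col and 51.2 and 37.2 in ref6-1, a log2 difference of 0.58 (limma adjusted p = 0.106), and was called when Col replicate 1 (adjusted p = 0.00799) or ref6-1 replicate 2 (0.0216) was left out, with adjusted p of up to 0.384 when another array was. The range of this list was -0.18 to 0.78. The 3 measured WRKY factors, regulators of defence and leaf senescence, did not pass, where 1.48% of all probe sets were called. WRKY6 had 0.14 (limma adjusted p = 0.845) and WRKY53 had 0.09 (adjusted p = 0.920), and the third was at -0.05. The list of STZ's relatives among the C2H2 zinc finger factors is not analysed here: 3 of its loci have a probe set but were among those left out for their symbols. The MYB factors, the jasmonate and wound genes, the salt, drought and abscisic acid genes, the oxidative stress genes and the genes of mRNA turnover had no measured member and are not analysed here.

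**Figure D5:**
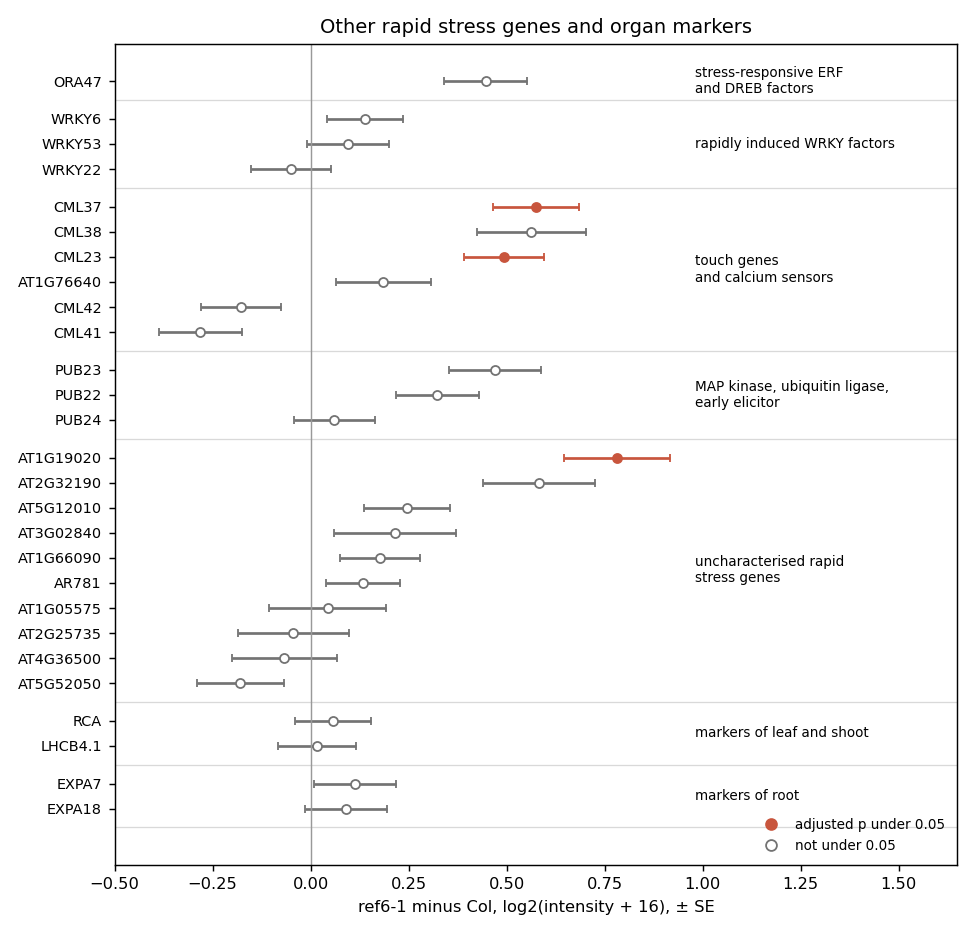
Difference between ref6-1 and Col (log2(intensity + 16), ± SE) for the 23 measured genes of the stress lists and 4 organ markers, with filled points for an adjusted p under 0.05 over all probe sets. AT1G19020, CML37 and CML23 are filled, at 0.78, 0.57 and 0.49, and the organ markers lie between 0.02 and 0.11.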

How the data were processed

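The authors deposited 1 intensity per probe set and array on a linear scale; per the labels' protocols, 10 ug of total RNA, extracted with Trizol, went into each biotinylated cRNA. The sources used here do not give how these intensities were summarized, background-corrected and normalized. Of 22810 probe sets 64 controls were left out. Values were taken as log2(intensity + 16) and fitted in limma 3.58.1 (R 4.3.3; eBayes, trend = TRUE). Tests were two-sided, p-values were adjusted by Benjamini-Hochberg over the 22746 probe sets, and the threshold was 0.05. The arrays' number limits the precision. The p-values set each difference against the spread between these arrays, which limma shares in part among probe sets. The annotation gives 1 gene alone for 13513 probe sets, of which 13436 matched a locus of the RefSeq gene table (TAIR10.1), used for names and gene order only, as the array's build is not given here.

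The members and lists were chosen with earlier results of these data known. Genes named are the 7, up to 4 called genes per list or the 2 with the smallest p, the nearest measured loci, and the 8 nearest patterns. AT4G27660, AT4G29700, AT5G65380, PUB24, CML38, CML41 and CML42 were named after their values had been seen. The window of 4 loci was added after the nearest loci had been seen. The comparison of proteins and promoters that had been planned was not made. Alternatives were quantile normalization, median centring, added values of 1 and 64, filters removing the 30% or 50% dimmest probe sets, a prior without trend, a robust prior, the replicate number as a block, and omission of each array in turn.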

Additional observations from a re-analysis of the deposited data

How the results depend on the processing

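The median log2 difference of the 7 genes was 1.21; it was 0.96 with 64 added in place of 16, 1.08 to 1.31 when 1 array was left out, and differed by less than the spread between replicates under the other alternatives, STZ left out included. When 1 array is left out, the lone array is assumed to vary like the other genotype. The 337 probe sets called (176 higher, 161 lower) became 273 to 533 without 1 array (143 to 238 higher, 130 to 295 lower), the highest without Col replicate 2. With replicate number as a block they were 1636 (790 higher, 846 lower), and the stress list genes called went from 3 to 9 (2 to 3 without 1 array). The labels give the numbers no shared batch. The correlation of the replicate differences across probe sets was 0.279, and with 2 pairs it cannot decide whether arrays of the same number share a batch. The 0 nearest loci called became 2 after median centring, 1 after quantile normalization and 2 with the block. With the block the calls over all probe sets rose as well, from 337 to 1636. The cause was not tested. CML23 also had an adjusted p of 0.0553 without the intensity trend and 0.0549 with 64 added. Small values changed sign: without 1 array, AT1G27700 ran from -0.358 to 0.100, AT4G29750 from -0.148 to 0.114, AT4G29790 from -0.0378 to 0.153 and LHCB4.1 from -0.0552 to 0.0875; after quantile normalization, AT4G29750 was at 0.0120 and RCA at -0.00669. The dimmest 50% of probe sets include AT4G27654 and AT3G10930. The planned comparison of proteins and promoter motifs was not run.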

Other observations

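The log2 differences of the 6 measured touch genes and calcium sensors did not all have the same sign. They were above 0 in 4, beside 43.6% of all probe sets, and limma called 0 lower, beside 0.708%. CML38, CML41 and CML42 were picked after their values had been seen. CML38 read 140.2 and 159 in Col and 266 and 195 in ref6-1, a log2 difference of 0.56 (SE 0.140, limma adjusted p = 0.112), close in size to CML37 and CML23. CML41 had 64.3 and 57.6 in Col and 46.3 and 48.3 in ref6-1, a log2 difference of -0.28 (limma adjusted p = 0.426). CML42 had -0.18 (limma adjusted p = 0.765). For both the ref6-1 arrays lay below the Col arrays, as they did in 19.5% of all probe sets. These 3 did not pass over all probe sets, and differences between the members of the family were not tested.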
